A study of Mus musculus with 4 samples.

Results

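Expression of 10 genes, 5 mucins and 5 genes that act in goblet cells, was examined across the cell types of the mouse lung and between lungs with and without an epithelial deletion in the p73 gene. The mucins were Muc1, Muc4, Muc16, Muc5b and Muc5ac, and the other genes were Spdef, Foxa3, Creb3l1, Agr2 and Galnt6. Members were taken by symbol from the 57010 genes of the count matrix, and each was read in cells in which at least 500 genes were detected. No expression value served as a rule for their choice, but earlier results of these data were known when they were chosen.

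The series profiled single lung cells with SPLiT-seq, in which RNA inside fixed cells is barcoded over successive rounds of splitting and pooling. A Cre_Pos pool held the lungs of 6 Shh.Cre+/Flox-p73 mice and a Cre_Neg pool those of 6 littermates that lacked Cre and were homozygous for the floxed allele. Both pools came from C57Bl6/J mice aged 8 weeks, the floxed region of p73 spanned exons 7 to 9, and the Shh driver of Cre is active in lung epithelium from early development onward. Lungs were digested enzymatically, leukocytes carrying CD45 were depleted and cells carrying Epcam were enriched on magnetic beads, and live cells were sorted before fixation. All cells were then split into 4 sublibraries, each of which held cells of both pools. The sublibraries are aliquots of the same pools, so they show technical spread and not the spread between mice. With 1 pool per genotype there was no test of genotype: intervals given below are exact 95% intervals that cover counting error only, and a pool difference cannot be told apart from a difference between these 2 groups of mice.

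Mucins are large, heavily O-glycosylated proteins that cover airway surfaces. Gel-forming mucins are secreted and cross-linked into the mucus layer that cilia move, whereas membrane mucins stay tethered to the apical cell surface. In the airway, secretory (club) and goblet cells make the gel-forming mucins Muc5b and Muc5ac, and goblet cells are produced under transcription factors that include Spdef and Foxa3. Mucin synthesis also needs chaperones of the endoplasmic reticulum and enzymes of the Golgi that start and extend the sugar chains.

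Of 16579 cells with at least 500 genes, 16356 remained after filters on mitochondrial reads and doublets, 7696 in the Cre_Neg pool and 8660 in the Cre_Pos pool. Median depth was 8713.5 and 8219 unique molecular identifiers (UMIs, each a counted RNA molecule) per cell. Cells were clustered without the 10 genes and grouped into classes by marker genes, so the levels below did not define the classes. Trp73, the targeted gene, was at 85.8 UMIs per 1000000 UMIs (CPM) over all Cre_Neg cells and 11.8 CPM over all Cre_Pos cells. Within the ciliated-like class it was at 334 and 312 CPM, and the class made up 15.6% of kept Cre_Neg and 1.39% of kept Cre_Pos cells. UMIs outside the floxed exons count as well, and whether these Cre_Pos cells carried the deletion was not tested. Cells with Y-linked transcripts and no Xist were 177 of 1201 ciliated-like cells in the Cre_Neg pool and 101 of 120 in the Cre_Pos pool. In the Cre_Pos pool 3 ciliated-like cells had the reverse. Cre_Pos AT2-like cells held 128 of the first kind and 1063 of the second, and Cre_Pos secretory-like cells 14 and 5. The pools thus differed in mouse sex within the ciliated-like class, and sex calls differed between them elsewhere as well. Cells of the first kind were 358 of 1931 Cre_Neg and 128 of 1299 Cre_Pos AT2-like cells. They were 357 of 2764 and 159 of 5642 endothelial-like cells, and 48 of 222 and 4 of 184 B cell-like cells. In cluster 7, described below, the order was opposite, at 15 of 174 and 44 of 238. Cre_Pos ciliated-like cells also differed in sex from AT2-like cells of their own pool. Pool ratios, in ciliated-like and other classes, are given with this in view. No cluster was named goblet-like: of 7 goblet markers, 5 had UMIs in the secretory-like class in each pool and summed to 1249 and 942 CPM, and Gcnt3 and Tff1 were at 0 there. Although cells with Epcam had been enriched, endothelial-like cells made up 35.9% and 65.2% of the kept cells. Cluster 7, which was led by Scgb1a1, Cyp2f2, Cbr2 and Sftpa1, carried both secretory and alveolar type 2 (AT2) markers and was left unnamed, as were clusters 11 (led by Ndnf, Sftpc and Ano1) and 21 (led by Fn1, Pid1 and Dock2).

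Sequence just upstream of the transcription start was available for 7 of the 10 genes in the RefSeq promoter table (assembly GRCm38.p6), and those of 3 membrane mucins and of Spdef are shown because these mucins had most of their UMIs in 3 different classes and Spdef is the goblet cell factor. Each run holds the 250 bases before the annotated start, 5′ to 3′ on the gene's strand, in lower case with matches to the motifs searched in capitals.
Muc1: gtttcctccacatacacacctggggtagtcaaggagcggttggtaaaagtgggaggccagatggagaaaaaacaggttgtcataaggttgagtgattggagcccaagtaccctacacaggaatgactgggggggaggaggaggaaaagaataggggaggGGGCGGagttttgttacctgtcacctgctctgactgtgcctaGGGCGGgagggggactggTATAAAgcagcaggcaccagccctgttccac
Muc4: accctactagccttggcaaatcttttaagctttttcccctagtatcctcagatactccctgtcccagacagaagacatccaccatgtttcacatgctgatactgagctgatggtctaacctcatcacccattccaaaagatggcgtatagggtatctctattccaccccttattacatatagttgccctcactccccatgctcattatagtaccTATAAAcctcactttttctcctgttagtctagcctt
Muc16: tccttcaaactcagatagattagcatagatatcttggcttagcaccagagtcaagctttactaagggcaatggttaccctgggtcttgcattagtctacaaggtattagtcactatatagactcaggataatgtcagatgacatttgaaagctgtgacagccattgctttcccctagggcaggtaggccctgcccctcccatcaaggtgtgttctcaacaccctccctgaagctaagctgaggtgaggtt
Spdef: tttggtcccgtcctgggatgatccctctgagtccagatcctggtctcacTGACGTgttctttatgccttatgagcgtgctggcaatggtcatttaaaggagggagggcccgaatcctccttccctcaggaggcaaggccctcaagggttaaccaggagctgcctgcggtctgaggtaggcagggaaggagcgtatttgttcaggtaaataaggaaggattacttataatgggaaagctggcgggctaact
The windows are chr3:89228806-89229055 on the plus strand (Muc1), chr16:32735636-32735885 on the plus strand (Muc4), chr9:18674604-18674853 on the minus strand (Muc16) and chr17:27728952-27729201 on the minus strand (Spdef). Motifs were searched on both strands and none of them contains another: TGTTTNC for forkhead factors, CCGGAT for SPDEF, CAAGTG for NKX2-1, TGACGT for CREB and ATF factors, GGGCGG for the GC box and TATAAA for the TATA box. In Muc1 the capitals mark 2 GC boxes, beginning 91 and 49 bases before the start, and a TATA box at 31 bases. In Muc4 they mark a TATA box at 36 bases, and in Spdef a CREB/ATF match at 201 bases. None of these letters occurs in the Muc16 window. Among 32851 promoters of the same length, 32.7% held the GC box, 12.4% the TATA box, 6.47% the CREB/ATF letters, 17.8% the forkhead letters, 11.6% the NKX2-1 letters and 4.94% the SPDEF letters. Of the other members, Agr2 held a forkhead match 87 bases before the start on the minus strand, Foxa3 held 2 GC boxes and a TATA box, and Galnt6 held 3 GC boxes in the more upstream of its 2 windows. These matches describe the letters only.

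The 10 genes separated into airway secretory genes, genes shared by several epithelia, and genes found largely outside the epithelium. Of all UMIs of each gene in kept cells of both pools, 87.8% of Muc5b and 72.6% of Muc5ac lay in the secretory-like class, although that class held only 207 of 16356 cells. AT2-like cells held 73.5% of Muc1, 55.4% of Creb3l1, 47.0% of Spdef and 46.0% of Foxa3. The ciliated-like class held 54.6% of Muc4 and the mesothelial-like class 60.3% of Muc16. Galnt6 was spread over ciliated-like (34.8%), T cell-like (20.8%), alveolar macrophage-like (17.1%) and mast or basophil-like (13.98%) cells. A share of UMIs reflects how many cells a class holds as well as the level in each: Spdef, for example, was at 19.3 CPM in secretory-like cells and at 2.38 CPM in AT2-like cells. Total UMIs ran from 28160 for Muc4 down to 50 for Foxa3, and the values for Foxa3, Agr2 (165), Spdef (217) and Muc5ac (274) have wide intervals for that reason.

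**Figure D1:**
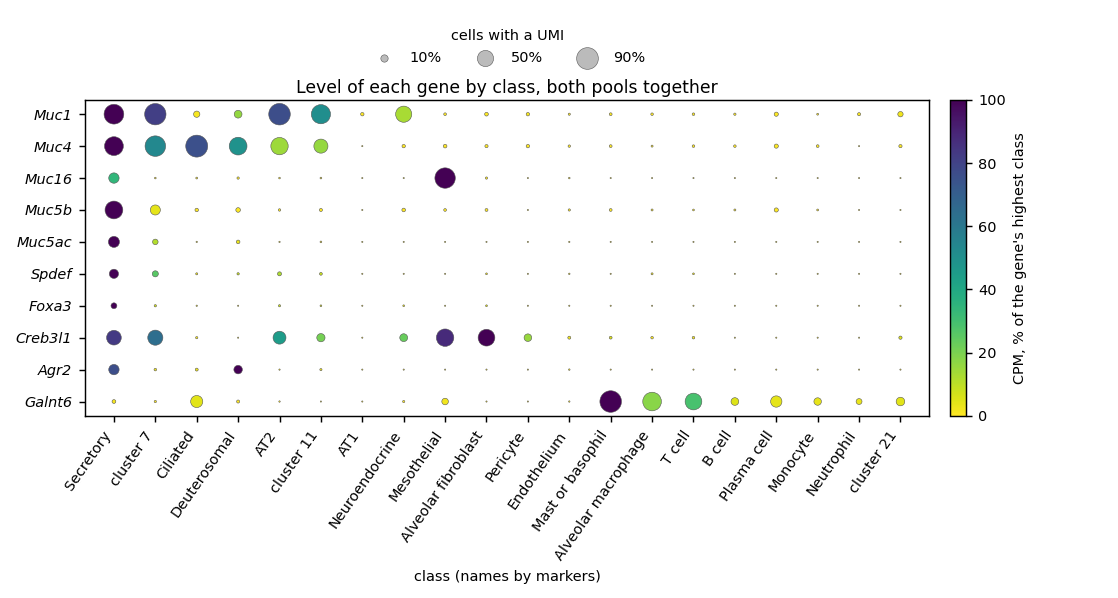
Level of each gene (rows) in each of 20 cell classes (columns), both pools together. Dot area is the percent of cells with at least 1 UMI and colour is CPM as a percent of the same gene's highest class; Muc5b and Muc5ac peak in the secretory-like class, Muc16 in mesothelial-like and Galnt6 in mast or basophil-like cells.

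**Figure D2:**
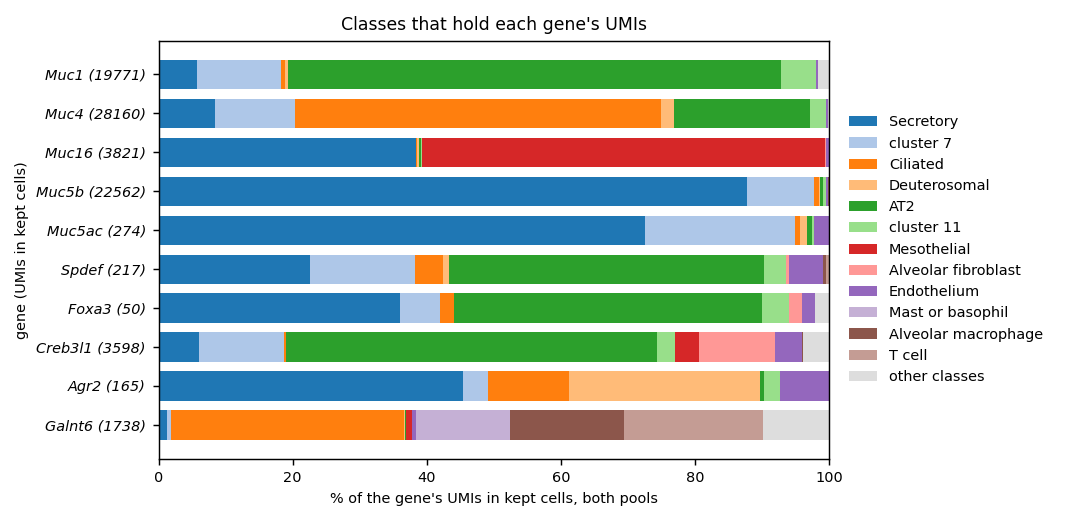
Percent of each gene's UMIs in kept cells that came from each class, both pools together, as stacked bars that add to 100. The secretory-like class holds 87.8% of Muc5b and 72.6% of Muc5ac, and AT2-like cells hold 73.5% of Muc1.

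Muc5b, the gel-forming mucin of the resting mouse airway, was a major transcript of secretory-like cells in both pools. It stood at 8400.0 CPM (8268 to 8533) in 159 Cre_Neg cells and at 6152 CPM (5969 to 6339) in 48 Cre_Pos cells. In sublibraries 1 to 4 the Cre_Neg values were 6990.5, 10915, 9773 and 5570.4 CPM, and the Cre_Pos values were 5579.9, 6032, 8605 and 4424 CPM. The sublibrary values of the pools overlapped, and the log2 ratio of Cre_Pos to Cre_Neg was -0.45 (-0.50 to -0.40), less than the spread between sublibraries. A Muc5b UMI was found in 56.0% of Cre_Neg cells and in 36 of 48 Cre_Pos cells, and in 56.3% and 73.3% after each cell was thinned to 2000 UMIs, which left out 24 and 3 shallower cells. In endothelial-like cells, which should not make it, the share was 0.796% and 0.603% at median depths of 5857 and 7161.5 UMIs, against 5853 and 7872 in secretory-like cells. Muc5b was concentrated in few cells: 16 of the 159 and 6 of the 48 held at least 50% of the UMIs, and the highest cells held 988 and 538. The class made up 2.07% of kept Cre_Neg cells (1.76 to 2.41) and 0.55% of kept Cre_Pos cells (0.41 to 0.73).

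Muc5ac, the gel-forming mucin associated with goblet cells of inflamed airways, was detected in fewer of the same cells. In the secretory-like class it was at 90.2 CPM (77.1 to 105) in the Cre_Neg pool, from 167 UMIs, and at 46.1 CPM (31.5 to 65.1) in the Cre_Pos pool, from 32 UMIs. Sublibraries 1 to 4 gave 101, 139, 83.8 and 34.4 CPM in Cre_Neg cells and 20.98, 50.5, 80.5 and 29.1 CPM in Cre_Pos cells. The groups overlapped, and the log2 ratio was -0.97 (-1.56 to -0.42), just under the 2-fold mark, and -1.39 without the highest cell of each pool. All 48 secretory-like cells with a Muc5ac UMI also had a Muc5b UMI. After thinning to 2000 UMIs a Muc5ac UMI remained in 8.15% and 4.44% of cells, intervals that overlap (4.14 to 14.1 and 0.543 to 15.1). Outside the secretory-like class and cluster 7 no class exceeded 2.47 CPM: AT2-like cells held 1 UMI in each pool.

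The direction of these pool ratios differed between sex calls within the secretory-like class. Of the Cre_Neg cells 13 had Y-linked UMIs and no Xist (Y-only) and 67 the reverse (Xist-only), and of the Cre_Pos cells 14 and 5 did. Among Y-only cells Muc5b was higher in the Cre_Pos pool (log2 ratio 0.57, 0.46 to 0.69), and among Xist-only cells it was lower (-0.86, -0.97 to -0.76). The corresponding Muc5ac ratios were 0.53 (-0.61 to 1.81) and -1.83 (-3.73 to -0.45). The pools' mouse sex and genotype cannot be told apart at these cell numbers.

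The secretory-like class held 2 kinds of cells at a finer clustering, and most members were at their highest in the deeper kind. At a resolution of 2, 112 cells were led by Scgb1a1, Cyp2f2 and Cbr2 and 95 cells by Bpifa1 and Scgb1a1, with median depths of 3129 and 21442 UMIs. Muc5b was at 1786 CPM in the first and 9025 CPM in the second, with a UMI in 32.1% and 93.7% of cells. Muc16 was at 36.7 and 687 CPM, Muc5ac at 11.5 and 92.0 CPM, Muc4 at 305 and 1050.1 CPM and Spdef at 6.89 and 21.8 CPM. Agr2 had no UMI in the 112 cells, which allows up to 3.24% of cells with a UMI at that depth (exact 95% limit), and stood at 35.6 CPM in the 95, whereas Muc1 differed little, at 367 and 461 CPM. The 95 Bpifa1-led cells comprised 74 Cre_Neg and 21 Cre_Pos cells, and in them Muc5b was at 9781 and 6899 CPM, Muc5ac at 104 and 57.9 CPM and Spdef at 25.7 and 10.9 CPM. These groups differed in depth as well as in genes, and the part of depth in these contrasts was not tested.

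Members were found together in the same secretory-like cells. Of 207 such cells, 125 had Muc5b, and these included all 42 cells with Agr2, all 13 with Foxa3, 41 of 42 with Muc16 and 30 of 33 with Spdef. Muc5b was also present in 114 of 140 cells with Muc4, 70 of 85 with Creb3l1 and 105 of 154 with Muc1. Detection of any gene rises with the UMIs of a cell, so these counts describe the cells and were not tested.

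Cluster 7, with secretory and AT2 markers, was the other source of gel-forming mucins, and there the pool order was opposite. Muc5b was at 173 CPM (157 to 191) in 174 Cre_Neg cells and at 411 CPM (392 to 430.0) in 238 Cre_Pos cells. Sublibraries 1 to 4 gave 86.9, 67.6, 118 and 443 CPM against 644, 264, 217 and 519 CPM. The groups overlapped only through the fourth Cre_Neg sublibrary, which held 2 cells with 135 and 107 Muc5b UMIs. The log2 ratio was 1.25 (1.09 to 1.40), and without the highest cell of each pool it was 1.61. Cells with a Muc5b UMI made up 16.1% and 21.4% of the cluster, and 7.23% (3.79 to 12.3) and 12.6% (8.61 to 17.6) after thinning, intervals that overlap. In the Cre_Pos pool 26 cells held 1762 of 1836 UMIs, and in the Cre_Neg pool 6 cells held 344 of 410.

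Muc5ac followed the same order in cluster 7, at 5.07 CPM from 12 UMIs and 10.96 CPM from 49 UMIs, a log2 ratio of 1.11 (0.18 to 2.16). Of the 49, 17 came from 1 cell, and without the highest cell of each pool the log2 ratio was 0.92. The makeup of the cluster also differed: the 9 secretory markers summed to 22615 CPM in the Cre_Neg and 11539 CPM in the Cre_Pos pool, and the AT2 markers to 6787 and 10979 CPM. Summed over the whole cluster, the Cre_Pos pool thus had a higher Muc5b level and lower secretory markers. These sums do not show the markers of the few cells that held most Muc5b UMIs. The part of the marker shift in the Muc5b ratio was not tested. Muc5b was higher in the Cre_Pos pool among Xist-only cells of the cluster too (log2 ratio 1.84, 1.64 to 2.03, in 140 and 172 cells), while the 15 Y-only Cre_Neg cells held 1 UMI against 293 in 44 Y-only Cre_Pos cells.

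**Figure D3:**
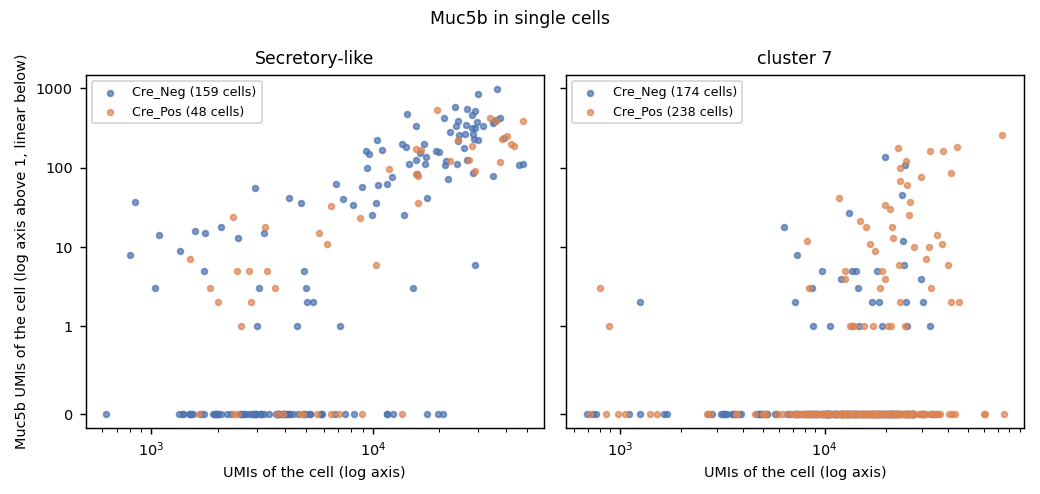
Muc5b UMIs of each cell (vertical axis, log scale, linear below 1) against all UMIs of that cell (horizontal axis, log scale) for secretory-like cells and cluster 7 in each pool. Muc5b reaches 988 UMIs in 1 Cre_Neg secretory-like cell, and most cluster 7 cells lie at 0.

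**Figure D4:**
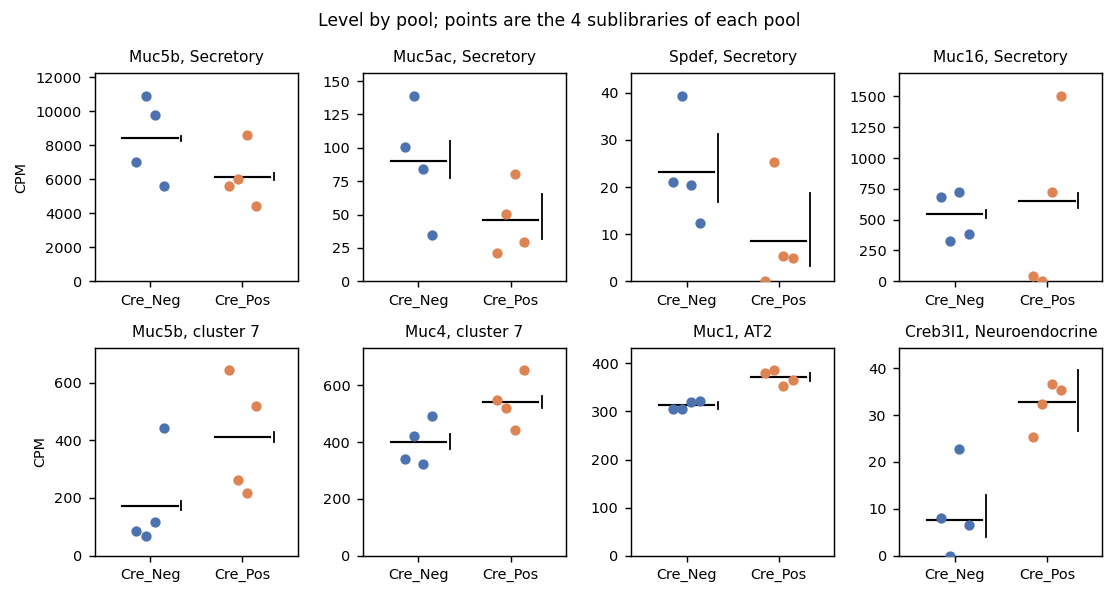
CPM of 8 gene and class pairs in the 4 sublibraries of each pool (points), with the pool's CPM (line) and its exact 95% Poisson interval (bar at right); each vertical axis starts at 0. Muc5b overlaps between pools in secretory-like cells, and Creb3l1 in neuroendocrine-like cells runs from 0 to 22.7 CPM in the Cre_Neg and from 25.3 to 36.6 CPM in the Cre_Pos pool.

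In 4 other classes the Muc5b pool ratios rested on 1 to 3 cells. In the ciliated-like class Muc5b was at 1.22 CPM in the Cre_Neg and 61.5 CPM in the Cre_Pos pool, but 3 Cre_Pos cells, with 73, 40 and 28 UMIs, held 141 of the 142 UMIs. The share of cells with a UMI was 1.92% and 3.33%, and sublibraries gave 0.638, 1.95, 1.25 and 0.731 CPM against 61.9, 0, 131 and 0 CPM. Those 3 cells carried 24251 to 43978 UMIs each and 3629 to 9664 CPM of secretory markers, where the median ciliated-like Cre_Pos cell had 827 CPM. In the deuterosomal-like class 38 of 39 Cre_Pos UMIs, in the AT2-like class 64 of 81 Cre_Neg UMIs, and in cluster 11 77 of 79 Cre_Neg and 33 of 34 Cre_Pos UMIs were each from 1 cell. These cells had not been called doublets, and whether they held RNA of 2 cells was not tested. In endothelial-like cells the UMIs were spread more widely, 32 and 36 in all with at most 10 in a cell, and the log2 ratio was -1.14 (-1.87 to -0.41), or -0.68 without the highest cell of each pool. Without cells of other classes that held 10 or more Muc5b UMIs, the log2 ratio in ciliated-like cells was -1.43 in place of 5.66 (5.03 to 6.35).

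Muc1, a membrane mucin of alveolar and airway surfaces, was found in secretory, AT2 and neuroendocrine epithelium, and AT1-like cells held 1 UMI in 51 cells. Both pools together it was highest in secretory-like cells (445 CPM), followed by cluster 7 (363), AT2-like cells (339.9), cluster 11 (227), deuterosomal-like (71.5) and neuroendocrine-like cells (58.2), and no other class exceeded 10.1 CPM. In AT2-like cells it was at 313 CPM (306 to 320.3) in the Cre_Neg pool and 372 CPM (363 to 381) in the Cre_Pos pool. Sublibraries 1 to 4 gave 306, 305, 321 and 323 CPM against 379, 387, 353 and 365 CPM, so every Cre_Pos sublibrary was above every Cre_Neg one. This gave a log2 ratio of 0.25 (0.20 to 0.30); it was 0.28 in Xist-only cells and -0.15 (-0.29 to -0.01) in Y-only cells. A Muc1 UMI was present in 86.1% and 92.3% of AT2-like cells, and in 41.4% and 49.2% at 2000 UMIs.

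In the other epithelia Muc1 was past 2-fold in deuterosomal-like and ciliated-like cells. It was lower in Cre_Pos secretory-like cells (log2 ratio -0.32, -0.52 to -0.12) and higher in cluster 7 (0.39, 0.26 to 0.52), and differed by less than its counting error in neuroendocrine-like cells (0.15, -0.22 to 0.52). The secretory-like ratio was 0.16 (-0.25 to 0.58) among Y-only and -1.10 (-1.68 to -0.58) among Xist-only cells. Deuterosomal-like cells, a class named after precursors of ciliated cells, were shallow, with median depths of 2265 and 1082 UMIs. In them Muc1 was at 19.3 CPM from 10 UMIs and 110.1 CPM from 77 UMIs, in 7.46% and 15.2% of cells. Sublibraries gave 0, 20.0, 45.9 and 0 CPM against 53.9, 98.8, 153 and 177 CPM, with no overlap. Their log2 ratio was 2.51 (1.55 to 3.63) and 2.63 without the highest cell of each pool, over an all-gene median of 0.118 in that class, and 55 of the 77 UMIs came from 3 cells. In that class AT2 markers summed to 311 and 746 CPM and secretory markers to 2161 and 3113 CPM, and the Cre_Pos cell with the most Muc1 (25 UMIs) was the one with 38 Muc5b UMIs, at 57673 UMIs in all. The part of these in the ratio was not tested. In ciliated-like cells Muc1 was at 4.92 and 12.1 CPM (1.14 and 0.877 CPM in endothelial-like cells), and the log2 ratio of 1.30 (0.64 to 1.92) rested on sublibrary 3 (27.2 CPM, other Cre_Pos sublibraries 2.70 to 7.94): it was -0.27 without that sublibrary and -0.90 among Y-only cells.

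Muc4, the membrane mucin of airway epithelium and a partner of the ErbB2 receptor, was high in both secretory and ciliated cells. It was at 923 CPM in secretory-like, 698 CPM in ciliated-like, 493 CPM in cluster 7, 458 CPM in deuterosomal-like, 145 CPM in cluster 11 and 134 CPM in AT2-like cells, and at 4.55 CPM or less elsewhere. In ciliated-like cells it was at 700.1 CPM (688 to 712) in the Cre_Neg and 676 CPM (642 to 709.9) in the Cre_Pos pool. Sublibraries gave 699.8, 737, 649 and 704 CPM against 551, 464, 930.0 and 655 CPM, with the Cre_Pos values on both sides of the Cre_Neg ones. A UMI was found in 92.0% and 92.5% of these cells, 13815 and 1561 UMIs in total, and the log2 ratio was -0.05 (-0.13 to 0.02). Among Y-only ciliated-like cells (177 and 101) the ratio was -0.32.

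Over all cells, no Muc4 ratio reached 2-fold in any measured class. In secretory-like cells the log2 ratio was 0.05 (-0.09 to 0.18), but it was -1.38 (-1.59 to -1.16) among the 13 and 14 Y-only cells and 0.76 (0.53 to 0.98) among the 67 and 5 Xist-only cells. In AT2-like cells it was 0.24 (0.16 to 0.31), at 124 and 146 CPM, and sublibraries gave 110.4, 123, 136 and 124 CPM against 151, 147, 127 and 158 CPM, with 1 value of each pool in the other's range. In cluster 7 it was 0.43 (0.33 to 0.55), from 401 to 542 CPM. Cluster 11 showed the reverse, 199.7 CPM in Cre_Neg and 103 CPM in Cre_Pos cells (log2 ratio -0.96, -1.19 to -0.73), while the share of cells with a UMI was 36.4% and 38.8%. In the Cre_Neg pool 9 cells held 264 of the 393 UMIs, and secretory markers in the cluster summed to 1111 and 192 CPM, whose part in the ratio was not tested.

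Muc16, the membrane mucin known as CA125, was a mesothelial transcript that was also found in a minority of secretory cells. In mesothelial-like cells, which line the pleura, it was at 1952 CPM (1861 to 2046) in 58 Cre_Neg cells and 1180.0 CPM (1086 to 1280.2) in 30 Cre_Pos cells. Sublibraries gave 1670.1, 2224, 3040.4 and 1467 CPM against 1423, 1934, 125 and 847 CPM, which overlapped. The log2 ratio was -0.73 (-0.86 to -0.59), and it was 0.13 in Y-only and -1.08 in Xist-only cells. In secretory-like cells Muc16 was at 547 and 651 CPM but in only 20.1% and 20.8% of cells. These levels combine cells of different sex calls, and the mix differed between pools. The Cre_Neg pool had 13 Y-only and 67 Xist-only secretory-like cells, and the Cre_Pos pool 14 and 5. The near-equal Muc16 levels therefore do not show that the pools were alike within a sex call. Sublibraries ranged from 329 to 724 CPM in the Cre_Neg pool and from 0 to 1507 CPM in the Cre_Pos pool, 5 and 2 cells held at least 50% of the UMIs, and without the highest cell of each pool the log2 ratio moved from 0.25 to -0.00. No other class exceeded 8.22 CPM, and ciliated-like cells held 6 and 2 UMIs.

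Spdef, the ETS factor needed for goblet cell differentiation, was low everywhere and highest per cell in the secretory-like class. There it was at 23.2 CPM (16.8 to 31.3) from 43 UMIs in the Cre_Neg pool and 8.64 CPM (3.17 to 18.8) from 6 UMIs in the Cre_Pos pool. Sublibraries gave 21.01, 39.4, 20.5 and 12.3 CPM against 0, 25.2, 5.36 and 4.85 CPM, overlapping through 1 Cre_Pos value. The log2 ratio was -1.43 (-2.95 to -0.19) and -1.79 without the highest cell of each pool. A UMI was found in 18.2% and 8.33% of cells. After thinning, 2 of 135 and 0 of 45 cells had a Spdef UMI, so a difference in the share was not detectable at that depth. In cluster 7 Spdef was at 5.07 and 4.92 CPM, and in AT2-like cells at 2.62 and 2.11 CPM, log2 ratios of -0.04 and -0.31 whose intervals include 0.

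Foxa3, a forkhead factor that promotes goblet cell genes, had 13 UMIs in Cre_Neg and 5 in Cre_Pos secretory-like cells, at 7.02 (3.74 to 12.0) and 7.20 CPM (2.34 to 16.8). In AT2-like cells it was at 0.429 and 0.668 CPM, a ratio of 0.64 (-0.67 to 1.99) on the log2 scale. At 50 UMIs in all kept cells, no pool difference in Foxa3 could be resolved.

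Creb3l1, a membrane-bound factor of the unfolded protein and secretory response, was shared by matrix-producing and secretory cells. It was at 103 CPM in alveolar fibroblast-like, 91.0 CPM in mesothelial-like, 85.7 CPM in secretory-like, 66.3 CPM in cluster 7 and 46.6 CPM in AT2-like cells. In AT2-like cells the pools were at 46.8 (44.1 to 49.7) and 46.4 CPM (43.4 to 49.5), with sublibraries of 42.9, 49.7, 44.5 and 49.7 against 44.4, 42.5, 50.9 and 48.7 CPM. This is a log2 ratio of -0.01 (-0.14 to 0.12), with 0.73 (0.36 to 1.09) among Y-only and -0.15 (-0.30 to -0.01) among Xist-only cells. It was -0.05 in secretory-like and -0.17 in alveolar fibroblast-like cells.

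In neuroendocrine-like cells, rare epithelial cells that release peptides and amines, Creb3l1 was higher in the Cre_Pos pool. It was at 7.60 CPM (4.05 to 12.999) in 136 Cre_Neg cells and 32.7 CPM (26.7 to 39.6) in 176 Cre_Pos cells. Sublibraries gave 8.10, 0, 22.7 and 6.48 CPM against 25.3, 32.3, 36.6 and 35.3 CPM, with no overlap. The log2 ratio was 2.10 (1.27 to 3.06), 2.63 without the highest cell of each pool, and 1.70 (0.78 to 2.75) in Xist-only cells (96 and 150). A Creb3l1 UMI was present in 4 of 136 and 32 of 176 cells, 2.94% and 18.2%, and after thinning in 0 of 122 (up to 2.98%) and 7.74% of 168 cells. The median depth was 11742 and 16653.5 UMIs, AT2 markers summed to 193 and 207 CPM and goblet markers to 4.68 and 8.57 CPM in the same cells. In cluster 7 the order was opposite, 89.6 CPM in Cre_Neg and 53.9 CPM in Cre_Pos cells (log2 ratio -0.73, -1.01 to -0.46). There the fourth Cre_Neg sublibrary was at 160.4 CPM and the other three at 52.1 to 73.7 CPM, against 48.0 to 65.0 CPM.

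Agr2, a protein disulfide isomerase needed to fold mucins, was found in deuterosomal-like (38.6 CPM) and secretory-like cells (29.5 CPM) and at 0.907 CPM or less elsewhere. In secretory-like cells it was at 29.2 CPM (21.9 to 38.1) and 30.2 CPM (18.7 to 46.2), in 19.5% and 22.9% of cells, a log2 ratio of 0.05. In deuterosomal-like cells sublibraries gave 26.8, 24.0, 36.7 and 47.6 CPM against 53.9, 51.1, 29.2 and 29.4 CPM, which overlapped, and the log2 ratio was 0.52. Median depth in that class was only 2265 and 1082 UMIs. In AT2-like cells, 1 UMI was counted over 3230 cells.

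Galnt6, an enzyme that adds the first sugar of mucin-type O-glycans, was mainly a leukocyte gene in these lungs. It was at 606 CPM in mast or basophil-like, 176 CPM in T cell-like and 107 CPM in alveolar macrophage-like cells, against 31.6 CPM in B cell-like and 27.4 CPM in ciliated-like cells. In T cell-like cells, a class that also passed natural killer markers, it was at 125 CPM (102 to 152) and 209 CPM (185 to 236). Sublibraries gave 128, 107, 132 and 154 CPM against 185, 214, 218 and 223 CPM, with no overlap, and the log2 ratio was 0.74 (0.41 to 1.09). Among Xist-only T cell-like cells it was 0.43 (-0.00 to 0.87). In B cell-like cells the order was opposite, 42.0 and 18.4 CPM (log2 ratio -1.19, -2.0002 to -0.43), in 14.4% and 7.07% of cells. In ciliated-like cells Galnt6 was at 28.3 and 19.5 CPM, and sublibraries gave 26.4, 25.4, 29.5 and 33.6 CPM against 31.7, 7.94, 18.1 and 16.2 CPM. The log2 ratio there was -0.54, and among Y-only cells it was 0.58 (-0.10 to 1.26). Leukocytes had been depleted before sorting, so these classes hold the cells that escaped it.

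Across all classes, 44 gene and class pairs had at least 20 UMIs over both pools and could be compared; 7 were at least 2-fold higher and 7 at least 2-fold lower in the Cre_Pos pool. In secretory-like cells 2 of 9 measured members were past 2-fold, Spdef and Galnt6 (18 and 3 UMIs), both lower, where 8.97% of all measured genes were past 2-fold either way. In cluster 7, 2 of 6 were past 2-fold (Muc5b and Muc5ac, both higher), against 9.20% of genes. In ciliated-like cells 3 of 5 were past it (7.78% of genes), Muc5b and Muc1 higher and Agr2, with 19 and 1 UMIs, lower, and in AT2-like cells 1 of 6, Muc5b, lower (2.53%). Neuroendocrine-like cells had 1 of 2 past 2-fold (5.35%; Creb3l1) and deuterosomal-like cells 2 of 4 (11.5%; Muc1 and Muc5b), all higher. Endothelial-like cells had 1 of 4 (4.57%; Muc5b), cluster 11 had 1 of 4 (6.15%; Muc5b) and B cell-like cells had their 1 member, Galnt6, past it (8.87%), all lower. Alveolar fibroblast-like (6.34%), monocyte-like (6.42%) and T cell-like cells (12.0%) had 1 member each and none past 2-fold. Of the 14 pairs, 5 were Muc5b outside the secretory-like class and cluster 7, and 7 of the 14 stayed past 2-fold in the same direction without the highest cell of each pool: Galnt6 in B cell-like, Muc1 and Muc5b in ciliated-like, Creb3l1 in neuroendocrine-like, Spdef in secretory-like and Muc1 in deuterosomal-like cells, and Muc5b in cluster 7. The ciliated-like pairs did not hold under other alternatives. Muc5b there still rested on Cre_Pos cells with 40 and 28 UMIs, and its log2 ratio was negative once these were also left out. The Muc1 ratio there was negative without sublibrary 3 and among Y-only cells.

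**Figure D5:**
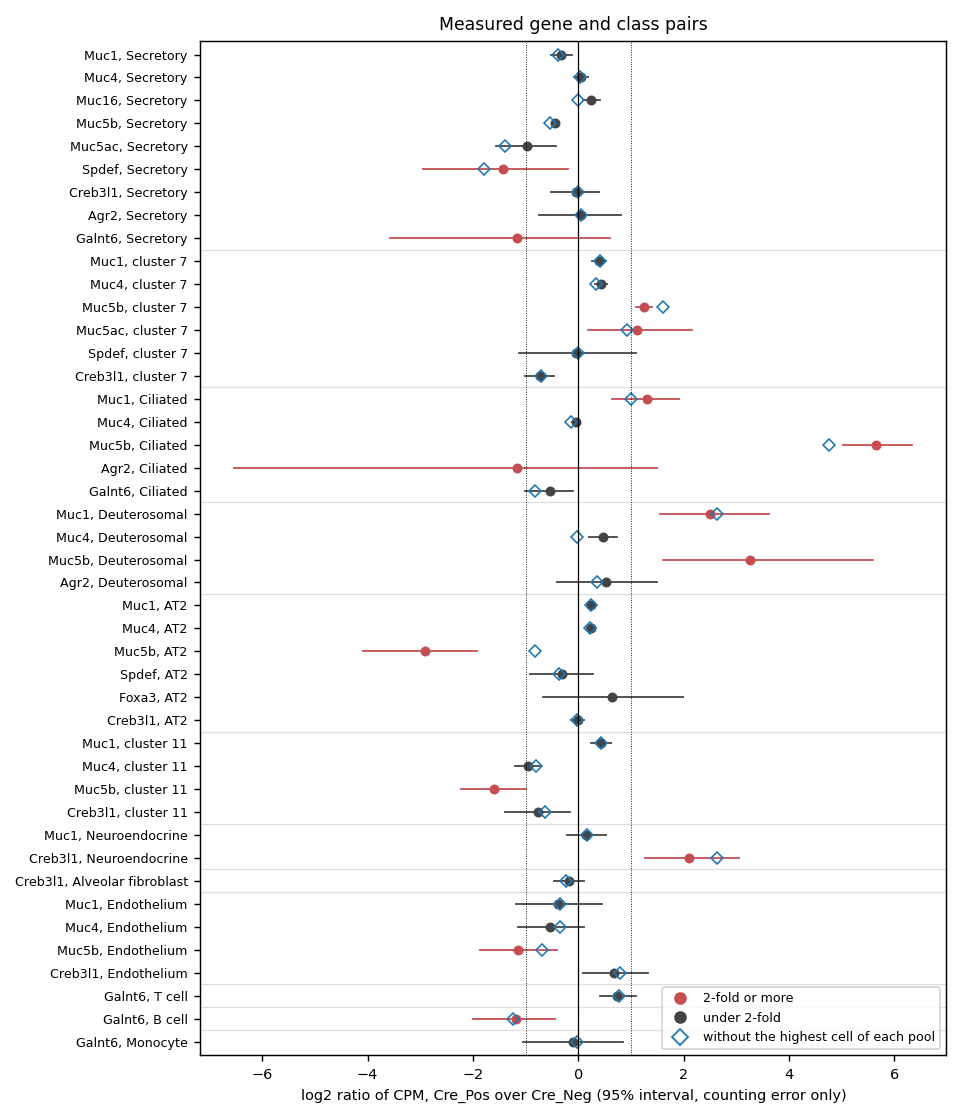
Log2 ratio of Cre_Pos to Cre_Neg CPM for the 44 measured gene and class pairs with exact 95% intervals (horizontal axis, 0 means equal); red points are at least 2-fold apart and open diamonds give the ratio without the highest cell of each pool. The Muc5b ratio of 5.66 in ciliated-like cells is the farthest from 0.

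Free RNA was judged from barcodes with at most 50 UMIs, too few to be cells. There Muc4 was at 143 and 96.8 CPM in the Cre_Neg and Cre_Pos wells, Muc5b at 111 and 59.8, Muc1 at 76.7 and 75.5, Muc16 at 22.9 and 12.9, Creb3l1 at 17.5 and 18.2 and Galnt6 at 9.21 and 6.91 CPM, and the other 4 members at 1.32 CPM or less. In endothelial-like cells Muc5b was at 1.74 and 0.790 CPM and Muc4 at 1.96 and 1.36 CPM, below their levels in free RNA.

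The other genes of mucin production were taken as 5 lists: other mucins, O-glycosylation enzymes, goblet cell proteins, genes of granule secretion, and transcription factors and receptors of mucous cells. In secretory-like cells no measured gene of the lists described here was 2-fold higher in the Cre_Pos pool. The counts that follow stand beside 8.97% of all measured genes past 2-fold in this class. Of 16 measured O-glycosylation enzymes 1 was 2-fold lower (Galnt10, log2 ratio -1.12), with a list median of -0.07 where the median of all genes was -0.05. Of 13 goblet cell proteins 2 were lower, the trefoil factor Tff2 (116 and 43.2 CPM, log2 ratio -1.43) and the actin-severing protein Scin (48 and 2 UMIs, log2 ratio -3.17), and the list median was -0.01. Of 23 factors and receptors, with a median of -0.08, 3 were lower: Klf4 (98 and 11 UMIs, -1.74), the receptor Egfr (112 and 51.9 CPM, -1.11) and Sox9, with 22 UMIs in Cre_Neg and 0 in Cre_Pos cells. Fut2, Muc20, Foxa2, Grhl2 and Pdia4 had log2 ratios of 0.44 to 0.67, under 2-fold.

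In cluster 7 listed genes were past 2-fold in both directions. The share of all measured genes past 2-fold in this cluster was 9.20%. Of 18 O-glycosylation enzymes 3 were 2-fold higher in the Cre_Pos pool, Galnt18 (54.1 and 246 CPM, log2 ratio 2.19), Gcnt4 (3.61, from 1 and 23 UMIs) and Fut2 (1.67), and Galnt13 was lower (-1.23). Of 7 goblet cell proteins 1 was lower, Bpifb1, a secreted airway defence protein (454 and 82.1 CPM, -2.47). Of 18 secretion genes Sytl4 was lower (-1.45), and of 22 factors and receptors the interleukin 4 receptor chain Il4ra (1.72) and Klf4 (1.75) were higher. The medians of these 4 lists were 0.14, 0.38, 0.09 and 0.03, where the median of all genes was 0.04. In endothelial-like cells of both pools Galnt18 was at 2927, Klf4 at 243 and Il4ra at 229 CPM. Gcnt4 and Fut2 were at 0.0469 and 0.516 CPM there. Endothelial-like cells were 35.9% of kept Cre_Neg and 65.2% of kept Cre_Pos cells, and the part of endothelial RNA in these ratios was not tested.

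In AT2-like cells 2 listed genes were past 2-fold, where 2.53% of all measured genes were. None of 5 other mucins, 18 O-glycosylation enzymes and 21 factors and receptors was past 2-fold. Of 10 goblet cell proteins the anion exchanger Slc26a4 was higher (44.1 and 91.7 CPM, log2 ratio 1.06), and of 19 secretion genes Syt2 was higher (2.57 and 9.51 CPM, 1.88). List medians ran from -0.05 to 0.13, with 0.01 for all genes. In ciliated-like cells, where 7.78% of all measured genes were past 2-fold, 2 of 18 O-glycosylation enzymes (Gcnt4 1.25, St6galnac2 1.16), 1 of 9 goblet cell proteins (Fcgbp 2.61), 2 of 18 secretion genes (Sytl2 1.46, Stx11 1.38) and 2 of 22 factors and receptors (Klf4 1.13, Sox9 1.33) were higher, and Elf3 (-1.05) was lower. The medians of these 4 lists were 0.10, 0.17, 0.16 and -0.00, with 0.03 for all genes. Those ciliated ratios compare 1201 mostly Xist-positive cells with 120 mostly Y-positive cells, and the part of sex in them was not tested. Fcgbp had 10 UMIs in the Cre_Pos ciliated-like cells. Fcgbp and Sytl2 were highest in the secretory-like class (178 and 151 CPM). Secretory markers in ciliated-like cells summed to 1047 CPM in the Cre_Neg and 1371 CPM in the Cre_Pos pool, and their part in these ratios was not tested.

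Several listed genes shared the secretory-like class as their highest: Clca1 (786 CPM), Bpifb1 (2406), Fcgbp (178), Muc20 (136), Tff2 (96.3), Galnt5 (68.4), Gp2 (55.4), Ern2 (49.1) and Fut2 (43.6), all in both pools together. The intestinal gel-forming mucin Muc2 had 88 UMIs in all kept cells. The genes whose level followed each member most closely over 20 classes, by Pearson correlation of log2(CPM + 10) among 13158 genes, were for Muc5b Bpifb1, Wdr72 and Scgb3a2 (r = 0.99 each), for Muc1 Ehf (0.96), Nexmif (0.93) and Elapor1 (0.92), and for Muc4 Cbr2 (0.97), Cxcl17 and Prob1 (0.96 each). For Muc16 they were Msln (0.98), Erbb4 (0.91) and Atp6v0a4 (0.81), for Creb3l1 Epdr1 and Gpam (0.89 each) and Gabre (0.88), and for Galnt6 Rasal3 (0.86), Klhl6 and Dusp5 (0.85 each). Points are classes of the same libraries and share their depth, and the correlations are descriptions. Bpifb1 and Scgb3a2 were on the secretory marker list used to name classes, so their height in the secretory-like class was not independent of its name. The same holds for Msln, which was on the mesothelial marker list, and the mesothelial-like class.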

How the data were processed

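Single-cell RNA of mouse lung was measured by SPLiT-seq with the Parse Evercode WT v2 kit. The authors deposited raw transcript (UMI) counts for 647296 barcodes and 57010 genes, with a table giving each barcode's pool by its wells and its sublibrary. Per the labels the build is GRCm39 while the deposited gene table reads mm10, so no gene coordinates were taken from the files; which program aligned and counted the reads was not given in the sources used here. Barcode totals summed from the matrix equalled those of the deposited cell table for all 647296 barcodes, and 191160309 UMIs were counted.

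Cells with at least 500 genes (16579; the study states 20000 cells) and at most 15% mitochondrial UMIs were kept (16541), and 185 doublets called by Scrublet (1.12%) were removed. Of the 16356 kept cells, 558 shared their barcode with a cell of another sublibrary. Clustering used scanpy 1.11.5 and leidenalg 0.10.2 with 2995 variable genes, 30 principal components, 15 neighbours and a resolution of 1, without the 10 genes and mitochondrial genes. It gave 30 clusters. Markers were accepted at 4 times the median cluster (after adding 10 CPM) with UMIs in 10% of the cells or more. The name went to the type with most of its markers accepted, 3 or more, and was withheld where another type had more markers among the 10 leading genes. This naming rule was set after the clusters were seen, and a class called alveolar fibroblast-like also passed adventitial markers. A deuterosomal-like cluster passed all ciliated markers too, at low depth.

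CPM is a gene's UMIs per 1000000 UMIs of the class and pool. Intervals are exact 95% Poisson intervals for CPM, Clopper-Pearson intervals for shares of cells and conditional binomial intervals for log2 ratios, computed with scipy 1.17.1. A gene was measured in a class with at least 20 UMIs over both pools, and a difference of 2-fold was counted as past the mark. Pools were compared in classes with at least 100 cells in each pool and in the airway classes. All 10 genes were named, and of each gene list the members past 2-fold and the 2 highest and 2 lowest were eligible. The 3 genes most like a member were named for members with at least 500 UMIs. The list of secretion genes in secretory-like cells is not reported here. Members and lists were chosen with earlier results of these data known. The calculations were tested on simulated data. Alternatives were the filters, the clustering, TMM scaling, sex-called cells and each sublibrary left out.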

Additional observations from a re-analysis of the deposited data

Results flagged for a closer look

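Within the 4 sublibraries of a pool, 1 value lay far from the others in 7 cases. Chance gives about 1 in 20 groups if values spread normally. Each pool of a measured pair was searched where it held at least 20 UMIs. The number of groups searched is not given here, so the 7 cases cannot be set against that rate. Of the 7 cases, 5 concerned Muc5b. It was at 12.3 CPM in the first Cre_Neg sublibrary of AT2-like cells, against 0.192 to 1.17 CPM in the others, and 64 of the 81 UMIs came from 1 cell. In cluster 11 it was at 141 CPM in the first Cre_Neg sublibrary, against 0 to 2.31 CPM, and at 67.1 CPM in the fourth Cre_Pos sublibrary, against 0 CPM, again from 1 cell each. In Cre_Pos deuterosomal-like cells it was at 133 CPM in the second sublibrary and at 0 in the others, and 38 of 39 UMIs came from 1 cell. In cluster 7 the fourth Cre_Neg sublibrary stood at 443 CPM, against 67.6 to 118 CPM, with 2 cells of 135 and 107 UMIs in that pool.

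The other two concerned Muc1. The second Cre_Neg sublibrary of neuroendocrine-like cells was low, at 40.0 CPM against 61.5 to 62.8 CPM. The third Cre_Pos sublibrary of secretory-like cells was high, at 472 CPM against 334 to 353 CPM.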

How the results depend on the processing

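Of the log2 ratios recomputed under the alternatives, 57 of 618 changed sign, 14 of them in Y-only cells, and 11 of the 57 belonged to pairs past 2-fold. Fewer than the 44 pairs could be recomputed in Y-only cells, so the Y-only counts here come from a smaller set. In that set 3 ratios stayed within their counting intervals, 21 moved out of them and 1 pair past 2-fold changed sign. TMM scaling left all 44 ratios within their counting intervals. The 14 pairs past 2-fold became 7 in Y-only cells, 25 with a minimum of 5 UMIs, 8 without the highest cell of each pool (7 of the 14, plus Muc5ac in secretory-like cells) and 8 without cells of other classes with 10 or more Muc5b UMIs (the last 2 chosen after seeing the data). They were 10 to 14 with each sublibrary left out and 10 to 18 under the rest. In ciliated-like cells Muc1 turned to -0.90 in Y-only cells and ran from -0.27 (without sublibrary 3) to 1.72 with each sublibrary left out. Muc5b turned to -1.46 with doublets kept, and to -1.43 both at resolution 2 and without the cells named above. Agr2 turned to 0.39 with doublets kept and 2.63 at resolution 0.5. In cluster 11 Muc5b turned to 3.71 with the members free to enter the variable genes, 1.25 at resolution 0.5, and ran from -5.13 (without sublibrary 4) to 4.63 (without sublibrary 1). Galnt6 in secretory-like cells turned to 0.83 in Xist-only cells. The cause was not tested in any of these. Depth limits Foxa3, Agr2, Spdef and Muc5ac most, with 50 to 274 UMIs in kept cells. No paired analysis was possible because each genotype was 1 pool.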

Other observations

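Among 8 cells outside the secretory-like class and cluster 7 that held 10 or more Muc5b UMIs, 4 were Cre_Pos cells of the ciliated-like and deuterosomal-like classes. The deuterosomal-like one had 57673 UMIs and 10646 CPM of secretory markers. In cluster 11 the Cre_Neg cell with 77 and the Cre_Pos cell with 33 Muc5b UMIs carried 2730 and 15089 CPM of secretory markers.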
